A study of Homo sapiens with 6 samples.

Results

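Transcripts of 10 genes of bone morphogenetic protein (BMP) signaling were examined in HuCCT1, a cell line derived from human intrahepatic cholangiocarcinoma, with and without forced CD90 expression. The genes were chosen by symbol as the ligands BMP2, BMP4 and BMP7, the secreted antagonist GREM1, the pseudoreceptor BAMBI, the receptor-regulated SMAD9, the inhibitory SMAD6 and the target genes ID1, ID2 and ID3. All 10 were found among the 20811 genes of the deposited table. HuCCT1/CD90+ cells had received human THY1-CMV-GFP, which carries the CD90 gene THY1, and HuCCT1/CD90− cells Lenti-CMV-GFP-2A-Puro-Blank Lentivirus, each at MOI 40, so both lines shared the lentiviral transduction and the CMV-GFP cassette. Each line was measured in 3 libraries, and the sources used here do not say whether these came from separate cultures or how many clones a line held, so that p-values measure the spread between these libraries, which may be technical.

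BMPs are secreted dimers of the TGF-β superfamily. They bind type I and type II serine/threonine kinase receptors, which phosphorylate SMAD1, SMAD5 and SMAD9; these pair with SMAD4 and enter the nucleus. ID1, ID2 and ID3 are among the best-known genes induced in this way, and their products bind E proteins and keep them off DNA. SMAD6 and BAMBI are induced by the same signal and dampen it, whereas antagonists such as Gremlin 1, the GREM1 product, hold the ligands outside the cell. In the liver, BMP signaling is best known for the control of iron through hepcidin.

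Values are RPM, the reads of a gene scaled to the same total in every library, and each gene was read from 1 short amplicon. Levels of different genes were therefore not compared, since amplicons can differ in yield. The libraries held 8587634 to 10551516 reads, and 3 reads, taken as the detection floor, corresponded to 0.284 to 0.349 RPM. Reads came from PCR without molecular identifiers, so floors and counting intervals cover counting error only. As labelled, THY1 was nearly unread in HuCCT1/CD90− (0, 1 and 0 reads) and read 435, 445 and 680 times in HuCCT1/CD90+. All 6 cholangiocyte and epithelial markers examined were expressed, and 4 of them were higher in HuCCT1/CD90+ (limma, adjusted p no higher than 0.05), beside 9.41% of all genes. Of these, KRT18 and EPCAM passed when the fit was blocked on the replicate number. Markers of other cell types were not all at 0. Of 5 fibroblast markers, 4 were lower in HuCCT1/CD90+, or 2 with the block (LUM and PDGFRB), beside 9.52% of all genes or 6.4% with the block, and the summed level of the list spanned 40.9 to 63.6 RPM across HuCCT1/CD90−, against 20.3 to 24.7 RPM across HuCCT1/CD90+, with DCN near 0 in the latter. Of 3 endothelial markers, CDH5 fell, and the summed level went from between 14.5 and 23.2 RPM to between 0.643 and 1.51 RPM, with VWF at 0 in HuCCT1/CD90−. Of 4 immune markers CD68 rose, with sums of 46.5 to 55.9 and 83.9 to 100.5 RPM, and of 4 hepatocyte markers APOA1 fell, with sums of 1.75 to 4.28 and 0 to 0.465 RPM and TTR at 0 throughout. The part of these markers in the BMP results was not tested.

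BMP2, BMP4, SMAD6, ID1 and BAMBI were lower in HuCCT1/CD90+ than in HuCCT1/CD90− cells, and none of the 10 genes passed as higher. SMAD6 fell the most, from a mean of 68.6 to 7.69 RPM, while ID1 fell from 511 to 106 RPM and BAMBI from 16.1 to 2.60 RPM. ID2 averaged 18.7 and 14.5 RPM and did not pass the test, and ID3 averaged 3.50 and 0.829 RPM and passed in some of the tests. BMP7, SMAD9 and GREM1 had 2 reads at most in any library. In limma on log2(RPM + 1) over all 20811 genes, with Benjamini-Hochberg adjustment, 6 of the 10 had an adjusted p no higher than 0.05, all lower in HuCCT1/CD90+, beside 9.52% of all genes that were lower at this threshold and 18.9% that passed in either direction. SMAD9 is counted among the 6 although it never exceeded the detection floor, so no change was read from it. The median log2 difference of the 10 genes was -1.12, and that of all genes was 0. The 7 members averaging 1 RPM or more had a median of -1.71, beside -0.0086 over the 12062 genes at that level; the libraries hold bulk RNA, in which fewer cells with a transcript and less of it per cell cannot be told apart. With the genes below that level removed, BMP2, BMP4, SMAD6, ID1, BAMBI and ID3 passed, beside 21.1% of the remaining genes that were lower. ID3 reached that level only through HuCCT1/CD90−, since it averaged under 1 RPM in HuCCT1/CD90+. Neither its call there nor its place among the 7 members is therefore independent support. The same 6 passed on recovered whole reads in edgeR and in DESeq2, beside 22.2% and 18.1% of genes lower. With the replicate number as a block in the fit over all genes, 3 members passed, namely SMAD6, ID1 and BAMBI, beside 6.4% of genes lower. The plot of RPM by library shows all 7 with the 3 HuCCT1/CD90+ libraries below the 3 HuCCT1/CD90− libraries, an order found in 26.9% of the 12062 genes.

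**Figure D1:**
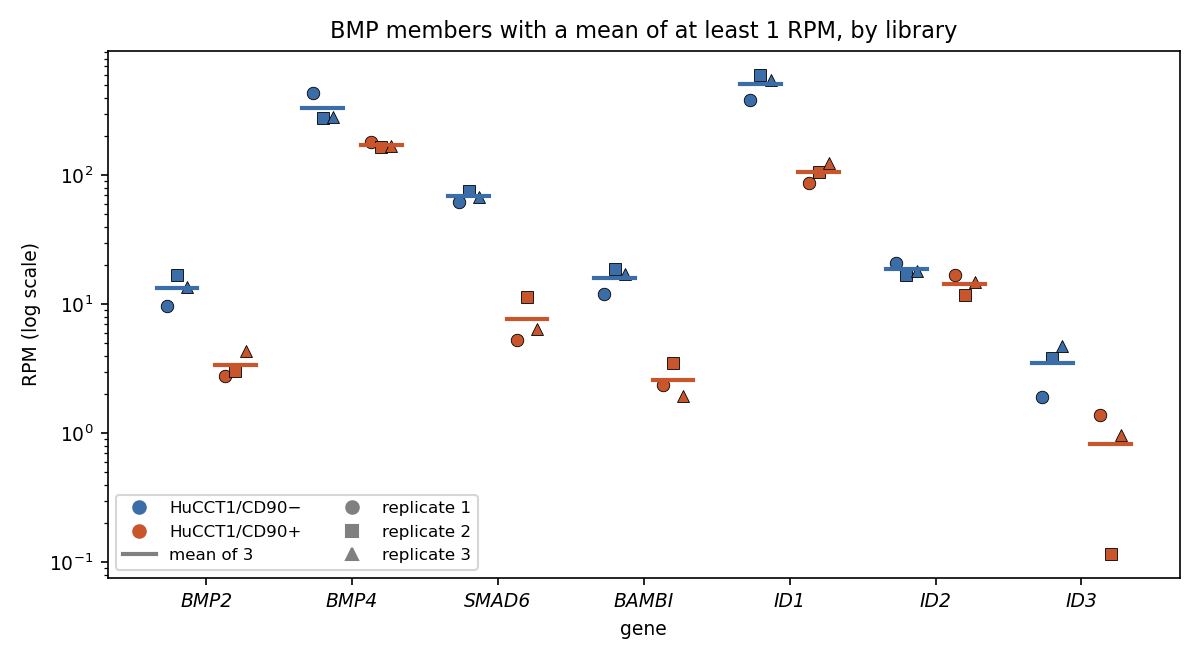
RPM of the 7 BMP genes averaging 1 RPM or more (log scale) in each HuCCT1/CD90− (blue) and HuCCT1/CD90+ (orange) library; marker shapes give the replicate number and bars the mean of 3 libraries. The lines are far apart for SMAD6, ID1 and BAMBI, and nearly touch for ID2, at 16.9 RPM in the lowest HuCCT1/CD90− and 16.8 RPM in the highest HuCCT1/CD90+ library.

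Of the ligands, BMP2, which signals mainly through BMPR1A and BMPR1B, lies on chromosome 20 from 6767664 to 6780280 (GRCh38, GENCODE 29). Replicates 1, 2 and 3 of HuCCT1/CD90− measured 9.76, 17.0 and 13.7 RPM, and those of HuCCT1/CD90+ 2.79, 3.03 and 4.34 RPM. The lowest HuCCT1/CD90− library thus lay above every HuCCT1/CD90+ library. The mean was 3.98 times as high in HuCCT1/CD90− (13.5 ± 3.63, SD, n = 3) as in HuCCT1/CD90+ (3.39 ± 0.836), and the log2 difference was -1.71 (95% interval -2.38 to -1.04, limma adjusted p = 0.016). Blocking on the replicate number gave an adjusted p of 0.053, and leaving out HuCCT1/CD90− replicate 3 or HuCCT1/CD90+ replicates 1 or 2 gave 0.064, 0.061 and 0.064. When genes with a mean under 1 RPM were removed, it was 5.8e-05, or 6.5e-05 with the block.

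BMP4, the closest relative of BMP2, lies on chromosome 14 from 53949736 to 53958761. It measured 438, 277 and 281 RPM in HuCCT1/CD90− and 180, 165 and 167 RPM in HuCCT1/CD90+. The HuCCT1/CD90+ libraries were tightly grouped, and HuCCT1/CD90− replicate 1 stood above the other 2 of its line. The means were 332 ± 91.8 and 171 ± 8.15 RPM (SD, n = 3 each), and the log2 difference of -0.92 (95% interval -1.48 to -0.36) was just inside the threshold (adjusted p = 0.0486, limma). Of the 6 fits that left out a library, it passed without HuCCT1/CD90− replicate 1, where the difference was -0.70 (adjusted p = 0.0086), and in the remaining fits the adjusted p was 0.081 to 0.15. With the replicate block it was 0.086. With genes under 1 RPM removed it was 0.0026, and 0.0014 with the block as well. BMP7, a ligand that prefers ACVR1 and the activin type II receptors, had a single read, in HuCCT1/CD90− replicate 2.

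The antagonist GREM1 had no read in any of the 6 libraries, which allows a level of up to 0.284 to 0.349 RPM in a library. BAMBI, a receptor-like membrane protein without a kinase domain that lowers BMP and TGF-β signaling, lies on chromosome 10 from 28677342 to 28682939. It measured 12.0, 18.8 and 17.3 RPM in HuCCT1/CD90− and 2.36, 3.49 and 1.95 RPM in HuCCT1/CD90+. The lines did not overlap, and the ratio of the means was 6.17. The log2 difference was -2.24 (95% interval -2.89 to -1.59, limma adjusted p = 0.0075), and it passed with the replicate block (0.035) and with each library left out.

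SMAD6, which blocks type I BMP receptors, lies on chromosome 15 from 66702228 to 66782848. It measured 62.1, 76.0 and 67.6 RPM in HuCCT1/CD90− and 5.25, 11.4 and 6.40 RPM in HuCCT1/CD90+. HuCCT1/CD90+ replicate 2 was the highest of its line and still far under every HuCCT1/CD90− library. The log2 difference of -3.06 (95% interval -3.84 to -2.28) had an adjusted p of 0.0053 in limma, and 0.028 with the replicate block. It was the 126th lowest difference among the 12062 genes averaging 1 RPM or more. SMAD9, the least used of the receptor-regulated SMADs of this branch, had 1, 1 and 2 reads in HuCCT1/CD90− and none in HuCCT1/CD90+, all at or under the floor.

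The 3 ID genes encode helix-loop-helix proteins without a DNA-binding region, and their log2 differences ran from -2.25 for ID1 to -0.36 for ID2. ID1 lies on chromosome 20 from 31605283 to 31606515. It measured 387, 603 and 544 RPM in HuCCT1/CD90− (mean 511 ± 112, SD, n = 3) and 86.4, 107 and 124 RPM in HuCCT1/CD90+ (mean 106 ± 18.8). Every HuCCT1/CD90− library was more than 3 times the highest HuCCT1/CD90+ library. The log2 difference was -2.25 (95% interval -2.87 to -1.63, limma adjusted p = 0.0064, or 0.021 with the replicate block), and each library held at least 806 reads of ID1.

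ID2 lies on chromosome 2 from 8678845 to 8684453. It measured 21.0, 16.9 and 18.1 RPM in HuCCT1/CD90− and 16.8, 11.8 and 14.9 RPM in HuCCT1/CD90+. Its log2 difference of -0.36 (95% interval -0.78 to 0.067) did not pass the threshold (adjusted p = 0.23, limma), and it did not pass in any alternative, the lowest adjusted p being 0.052 with genes under 1 RPM removed and the replicate block. The interval leaves room for a fall of up to 0.78 on the log2 scale. Reads of ID1 per read of ID2 within a library were 18.4, 35.6 and 30.0 in HuCCT1/CD90− and 5.13, 9.08 and 8.34 in HuCCT1/CD90+, so that the ratio, which does not depend on scaling between libraries, was lower in each HuCCT1/CD90+ library. Its log2 difference was -1.89, with a two-sided exact permutation p of 0.10, the smallest that 3 against 3 libraries allow, or 0.15 adjusted over the 3 gene pairs compared in this way, which were ID1 with ID2, ID3 and BMP4. Reads of ID1 per read of BMP4 were 0.883, 2.18 and 1.94 in HuCCT1/CD90− and 0.480, 0.647 and 0.741 in HuCCT1/CD90+, again without overlap (log2 difference -1.34, two-sided exact permutation p = 0.10, adjusted 0.15).

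ID3 lies on chromosome 1 from 23557918 to 23559794 and was weakly read. It measured 1.90, 3.85 and 4.75 RPM (20, 36 and 49 reads) in HuCCT1/CD90− and 1.39, 0.116 and 0.977 RPM (13, 1 and 9 reads) in HuCCT1/CD90+. The HuCCT1/CD90+ libraries differed widely among themselves, with replicate 2 at a single read. The log2 difference was -1.31 (95% interval -2.44 to -0.19), and it missed the threshold over all genes (adjusted p = 0.11, limma). With genes under 1 RPM removed the adjusted p was 0.0046, and on recovered whole reads it was 0.0023 in edgeR and 0.0027 in DESeq2. In pooled reads ID3 was 4.10 times as high in HuCCT1/CD90−, with a counting interval of 2.59 to 6.75. The number of ID1 reads per ID3 read was 204, 156 and 114 in HuCCT1/CD90− and 62.0, 917 and 127 in HuCCT1/CD90+, ranges that overlap (exact permutation p = 0.90, two-sided).

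The stretches before the start sites of the 3 ID genes, SMAD6 and BAMBI are shown because the log2 differences of these BMP target genes ranged from -3.06 to -0.36. Starts here are those of RefSeq (GRCh38.p14), where 8 of the 10 genes had an entry. The 250 bases upstream of each are written 5′ to 3′ on the strand of the gene. These starts differ from those of the GENCODE spans given above. The windows of ID2 and ID3 lie wholly inside those spans, so they are not upstream of the GENCODE starts. The windows of ID1, SMAD6 and BAMBI run past the first base of their spans. Capitals mark GGCGCC and GGAGCC on either strand, both GC-rich words that BMP-activated SMADs are known to bind, and no marked word overlaps another.
ID1 (chr20:31605039-31605288, plus strand): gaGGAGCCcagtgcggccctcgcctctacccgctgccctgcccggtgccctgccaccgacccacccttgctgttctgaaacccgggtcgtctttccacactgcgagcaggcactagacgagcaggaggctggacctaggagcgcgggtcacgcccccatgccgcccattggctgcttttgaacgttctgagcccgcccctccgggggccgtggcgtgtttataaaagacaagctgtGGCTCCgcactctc
ID2 (chr2:8681806-8682055, plus strand): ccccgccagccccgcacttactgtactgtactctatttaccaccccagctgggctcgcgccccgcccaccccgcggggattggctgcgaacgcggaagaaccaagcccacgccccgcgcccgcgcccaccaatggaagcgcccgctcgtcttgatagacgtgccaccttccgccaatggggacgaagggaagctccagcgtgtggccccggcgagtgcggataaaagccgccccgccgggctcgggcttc
ID3 (chr1:23559502-23559751, minus strand): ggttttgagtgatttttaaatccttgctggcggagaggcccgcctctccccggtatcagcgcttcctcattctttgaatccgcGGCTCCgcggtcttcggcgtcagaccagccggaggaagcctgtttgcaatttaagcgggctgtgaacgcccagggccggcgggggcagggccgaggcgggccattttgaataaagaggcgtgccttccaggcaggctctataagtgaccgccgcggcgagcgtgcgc
SMAD6 (chr15:66701986-66702235, plus strand): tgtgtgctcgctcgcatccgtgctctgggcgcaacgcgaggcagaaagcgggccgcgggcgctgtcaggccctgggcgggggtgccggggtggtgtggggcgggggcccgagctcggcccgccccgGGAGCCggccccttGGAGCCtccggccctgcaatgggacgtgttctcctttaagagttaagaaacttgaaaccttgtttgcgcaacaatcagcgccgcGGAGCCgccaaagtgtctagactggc
BAMBI (chr10:28677271-28677520, plus strand): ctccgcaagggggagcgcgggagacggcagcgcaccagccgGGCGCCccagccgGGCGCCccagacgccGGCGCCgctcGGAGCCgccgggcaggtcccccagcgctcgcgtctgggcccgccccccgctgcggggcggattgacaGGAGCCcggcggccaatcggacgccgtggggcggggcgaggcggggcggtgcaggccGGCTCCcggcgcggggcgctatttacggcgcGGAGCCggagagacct
ID1 held GGAGCC 2 times, at positions -248 and -14 from the start, SMAD6 3 times and ID3 1 time, whereas ID2 held neither word in this window. BAMBI held GGAGCC 4 times and GGCGCC 3 times, in a stretch of 81.2% G and C. The other members with an entry are not printed. All windows of BMP4 and SMAD9 lay inside the GENCODE spans of these genes, and those of GREM1 overlapped its span or lay inside it. SMAD9, which never exceeded the floor, held GGAGCC 3 times. GREM1, which had no read, held GGCGCC 2 times before 1 of its starts and neither word before the other. BMP4 held GGCGCC 1 time, GGAGCC 1 time or neither word, depending on the start. Among 35116 RefSeq promoters of the same length, 30.6% held GGAGCC and 16.4% held GGCGCC, so both words are common. These matches describe the letters only, since binding was not measured, and a link between the words and the differences was not tested.

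Within a line, the members did not all vary together. In HuCCT1/CD90−, replicate 1 was the lowest library for BMP2, SMAD6, BAMBI, ID1 and ID3 and the highest for BMP4 and ID2. In HuCCT1/CD90+, replicate 1 was the lowest for BMP2, SMAD6 and ID1 and the highest for BMP4, ID2 and ID3. BMP4 and ID2 were thus highest in replicate 1 and lowest in replicate 2 of both lines. The highest library exceeded the lowest by 1.22 to 2.51 times for the 7 genes in HuCCT1/CD90−, and by 1.09 to 2.17 times in HuCCT1/CD90+ apart from ID3, with 12.0 times. With 3 libraries a line this is a description only.

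**Figure D2:**
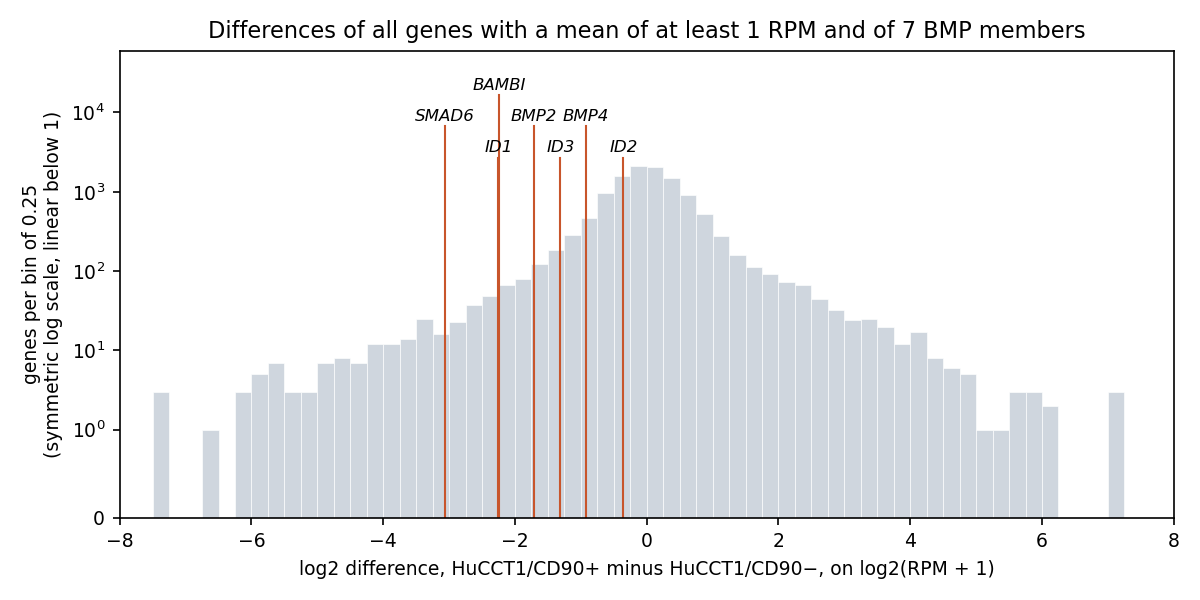
Number of genes (symmetric log scale) by log2 difference between HuCCT1/CD90+ and HuCCT1/CD90−, on log2(RPM + 1), for the 12062 genes averaging 1 RPM or more; orange lines mark the 7 BMP genes. SMAD6, ID1, BAMBI and BMP2 lie outside the range from -1.37 to 1.42 that holds the middle 90% of genes, ID3 lies near its edge, and BMP4 and ID2 lie inside it.

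The rest of the pathway was read from lists of 58 genes ordered by role, of which 32 had a mean of at least 1 RPM. In limma over all genes 5 of the 58 were higher and 11 lower in HuCCT1/CD90+, beside 9.41% and 9.52% of all genes. Their median log2 difference was 0, as for all genes, but 21 of them were at the floor in both lines. The 32 averaging 1 RPM or more had a median of -0.29, beside -0.0086 over all genes at that level. Among them, CHRDL1, SOSTDC1, ATOH8 and HEY1 reached that level only through HuCCT1/CD90−, and BMPR1B only through HuCCT1/CD90+. The median of the 32 is therefore a description, not independent support. The plot of differences by role gives each gene with its interval.

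**Figure D3:**
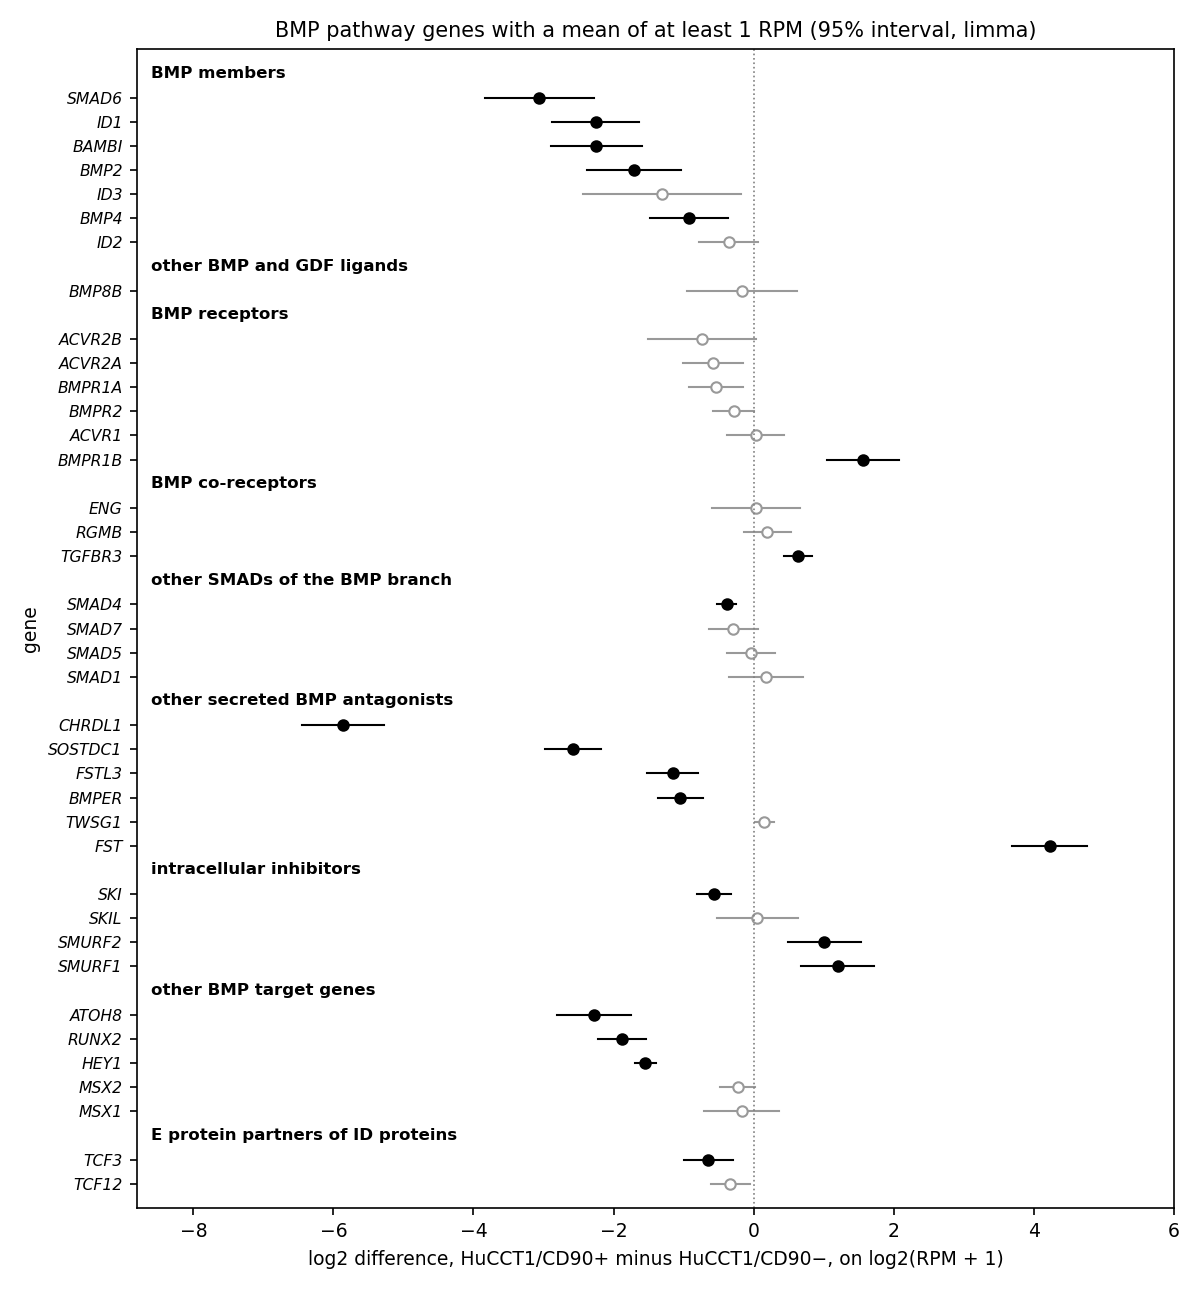
Log2 difference (HuCCT1/CD90+ minus HuCCT1/CD90−, on log2(RPM + 1)) with its 95% interval from limma for BMP pathway genes averaging 1 RPM or more, grouped by role; filled points passed an adjusted p of 0.05. The secreted antagonists span the widest range, from CHRDL1 at -5.86 to FST at 4.23, while SMAD1 and SMAD5 lie near 0.

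None of 11 other BMP and GDF ligands passed in the fit over all genes, beside 18.9% of all genes in either direction, and 7 of them were at the floor in both lines. BMP8B, the only one averaging 1 RPM or more, was 1.51 and 1.27 RPM in the 2 lines, and its reads may be shared with the near-identical BMP8A. BMP5 had 1, 0 and 2 reads in HuCCT1/CD90− and 4, 4 and 8 in HuCCT1/CD90+ (adjusted p = 0.067, limma). It passed as higher with quantile normalization and with median centring. Of 7 receptors, 1 passed, beside 18.9% of all genes in either direction. This was the type I receptor BMPR1B, which rose from 2, 1 and 4 reads to 26, 16 and 31 reads. That was 11.6 times as high in pooled reads (counting interval 5.36 to 29.9), with a log2 difference of 1.56 (adjusted p = 0.010, limma), which was 3.13 with an offset of 0.1 RPM and 0.55 with 5 RPM. The genes near BMPR1B had a median difference of 0.35. BMPR1A, the other main type I receptor, went from 19.1 ± 3.11 to 12.8 ± 1.18 RPM (SD, n = 3 each; adjusted p = 0.075). BMPR2, the BMP type II receptor, was at 68.0 and 55.6 RPM (adjusted p = 0.17, against 0.041 with the replicate block), and ACVR1 at 25.6 and 26.2 RPM (adjusted p = 1.0). The activin type II receptors ACVR2A and ACVR2B had log2 differences of -0.57 and -0.73 (adjusted p = 0.082 and 0.18), and ACVR2B passed with the block (0.019). With genes under 1 RPM removed, BMPR1A, ACVR2A and ACVR2B passed as lower (adjusted p = 0.024, 0.020 and 0.023, limma). The endothelial type I receptor ACVRL1 was at or under 2 reads in every library. Of 5 co-receptors only TGFBR3, also called betaglycan, passed, beside the same 18.9% of all genes. It rose from 34.3 ± 2.89 to 54.0 ± 2.69 RPM (log2 difference 0.64, adjusted p = 0.0089, limma).

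Of the signal-carrying SMADs, SMAD1 and SMAD5 did not pass and SMAD4 did. SMAD1 measured 1.99 ± 0.697 and 2.32 ± 0.283 RPM (log2 difference 0.18, 95% interval -0.35 to 0.70) and SMAD5 37.0 ± 3.16 and 36.1 ± 5.13 RPM (-0.040, 95% interval -0.38 to 0.30). The shared partner SMAD4 fell slightly, from 51.1 ± 3.35 to 39.0 ± 0.275 RPM, a log2 difference of -0.38 (adjusted p = 0.013, limma). Blocking on the replicate number gave 0.060, the removal of genes under 1 RPM gave 0.053, and taking out the neighbours' median made the difference -0.57 (adjusted p = 0.0047). Without HuCCT1/CD90+ replicate 1, 2 or 3 its adjusted p was 0.054, 0.051 and 0.057. The other inhibitory SMAD, SMAD7, was at 56.5 ± 7.85 and 45.9 ± 4.27 RPM (adjusted p = 0.24, limma), with a 95% interval of -0.64 to 0.062, whereas the interval of SMAD6 ended at -2.28.

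Of 14 other secreted antagonists, 5 were lower and 1 higher, beside 9.52% and 9.41% of all genes. At the floor in both lines were 7, Noggin (NOG) and Chordin (CHRD) among them. CHRDL1, a Chordin-like antagonist of BMP4, fell from 105, 101 and 105 RPM to 1.29, 0.932 and 0.326 RPM (log2 difference -5.86, adjusted p = 0.00059, limma). In pooled reads this was 123 times as high in HuCCT1/CD90− (counting interval 81.5 to 194), and CHRDL1 had the 12th lowest difference among genes averaging 1 RPM or more. SOSTDC1, a BMP and Wnt antagonist, fell from 81, 49 and 56 reads to 2, 1 and 2 reads, and BMPER, an extracellular BMP modulator, from 38.6 ± 5.03 to 18.1 ± 1.65 RPM (adjusted p = 0.0015 and 0.0086, limma). FSTL3 and FST both bind activins, and FST also binds BMPs. They moved in opposite directions: FSTL3 fell from 151 ± 25.5 to 66.6 ± 1.62 RPM (adjusted p = 0.0093), whereas FST rose from 5.78, 9.42 and 9.70 RPM to 173, 170 and 166 RPM, 20.4 times on the means (log2 difference 4.23, adjusted p = 0.0010, limma).

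**Figure D4:**
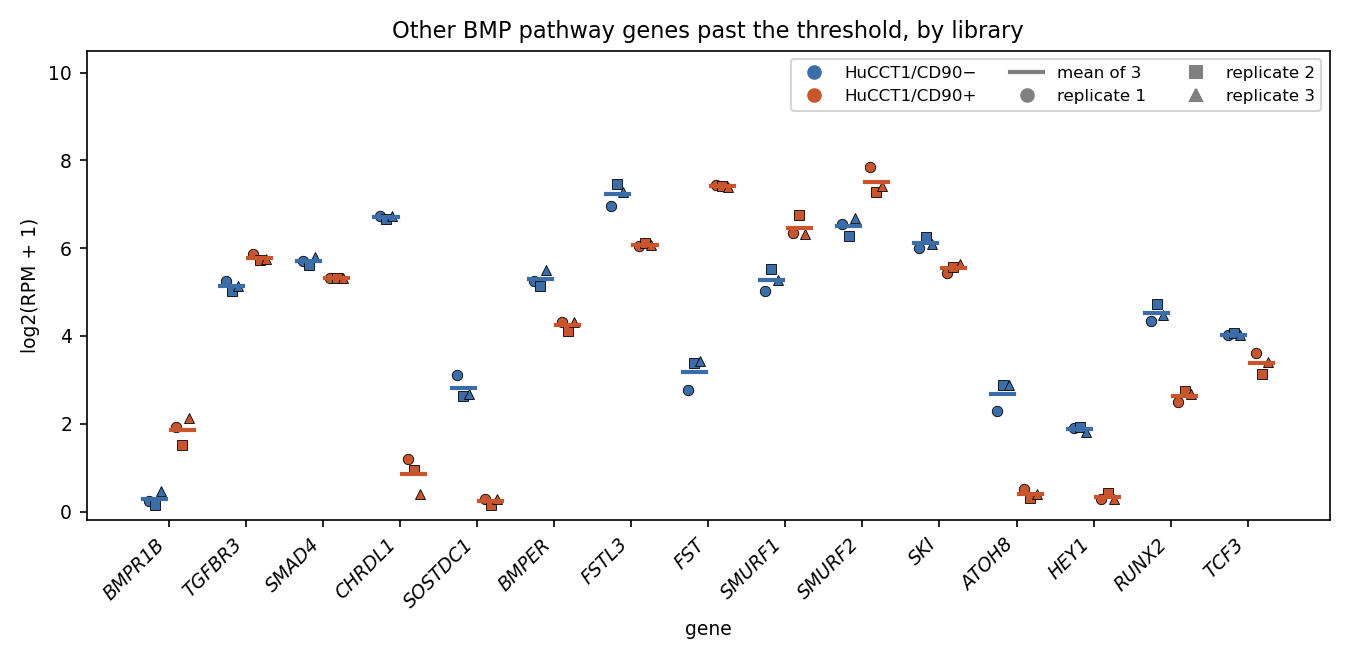
Level as log2(RPM + 1) of 15 other BMP pathway genes that passed the threshold in each HuCCT1/CD90− (blue) and HuCCT1/CD90+ (orange) library; marker shapes give the replicate number and bars the mean of 3 libraries. The lines do not overlap for any of the 15 genes, which is nearly fixed by drawing genes that passed the test between the lines. Among all 12062 genes averaging 1 RPM or more, 26.9% lay lower and 25.7% higher in HuCCT1/CD90+ without overlap. CHRDL1, SOSTDC1, ATOH8 and HEY1 lie near 0 in HuCCT1/CD90+.

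Of 4 intracellular inhibitors listed, the ubiquitin ligase genes SMURF1 and SMURF2, whose products mark receptors and SMADs for degradation, rose. SKI, a SMAD co-repressor, fell. Over all genes 9.41% were higher and 9.52% lower. SMURF1 went from 38.0 ± 6.75 to 88.6 ± 16.3 RPM and SMURF2 from 90.4 ± 12.6 to 185 ± 38.6 RPM (adjusted p = 0.021 and 0.032, limma). The genes near SMURF1 were themselves higher, with a median log2 difference of 0.67, and those near SKI lower, with -0.35. With the neighbours' median taken out, the difference of SMURF1 moved from 1.20 to 0.54 (adjusted p = 0.16) and that of SKI from -0.56 to -0.22 (adjusted p = 0.22). SMURF2 had an adjusted p of 0.067 with the replicate block, and 0.055 to 0.093 with any library left out. SMURF1 had 0.054 to 0.075 without HuCCT1/CD90− replicates 1 or 3 or HuCCT1/CD90+ replicates 1 or 3, and SKI 0.055 to 0.073 without HuCCT1/CD90− replicate 3 or any HuCCT1/CD90+ replicate. For the 7 detected members, by contrast, the median of the neighbouring genes lay between -0.23 and 0.24, and taking it out changed no call among them.

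Other genes that BMPs are known to induce were lower where they passed. Of 10, 3 fell and none rose, beside 9.52% lower and 9.41% higher over all genes. Another 3 were at the floor in both lines, among them ID4, the remaining member of the ID family, with no read in any library. ATOH8, a transcription factor gene activated by BMP in liver cells, went from 3.89, 6.42 and 6.40 RPM to 0.429, 0.233 and 0.326 RPM, and HEY1, shared with Notch signaling, from 29, 26 and 26 reads to 2, 3 and 2 reads (adjusted p = 0.0042 and 0.00055, limma). RUNX2, the osteoblast regulator, fell from 22.0 ± 3.20 to 5.25 ± 0.569 RPM (log2 difference -1.88, adjusted p = 0.0023). MSX1 and MSX2, homeobox genes that BMPs induce in development, had log2 differences of -0.17 and -0.23 (adjusted p = 0.68 and 0.20). HAMP, the hepcidin gene, had no reads. Among the E proteins that ID proteins bind, TCF3 fell from 15.4 ± 0.309 to 9.57 ± 1.73 RPM (adjusted p = 0.038, limma). The replicate block gave 0.11, and without any 1 library other than HuCCT1/CD90+ replicates 1 and 2 the adjusted p was 0.10 to 0.11. TCF12 was at 40.6 and 31.9 RPM (adjusted p = 0.11), and TCF4 had no reads.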

How the data were processed

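Gene expression was measured in 3 HuCCT1/CD90− and 3 HuCCT1/CD90+ libraries by Ion AmpliSeq Transcriptome sequencing (Ion GeneStudio S5 Prime). Amplicon reads were counted by the authors in the ampliSeqRNA plugin (Ion Torrent Suite Server 5.16.1; the submitters' processing notes list hg19) and RPM values were deposited by the authors. From the steps between low values, 100% of the values came out as whole reads (tolerance 0.0006 RPM). Values on the log2(RPM + 1) scale were compared by limma 3.58.1 (lmFit, then eBayes; R 4.3.3) over all 20811 genes with Benjamini-Hochberg adjustment, and alternatives used edgeR 4.0.16 (quasi-likelihood, filterByExpr) and DESeq2 1.42.0 on the recovered reads. Genes near 0 left the fit over all genes with a variance prior of 0.449 degrees of freedom, against 7.23 over the 12062 genes averaging 1 RPM or more, so that fit is given beside it. Simulated data were run through limma over all genes, limma over the filtered genes with and without the replicate block, edgeR and DESeq2. The other alternatives were not run on simulated data, and no outcome of the simulation is given here.

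Genes were named if they were members, pathway genes averaging 1 RPM or more that passed an adjusted p of 0.05, or BMP receptors, SMADs or ID4. Members and lists were chosen with earlier results of these data known. BMP5, BMP8A, BMP8B, NOG, CHRD, MSX1, MSX2, HAMP, TCF4, TCF12 and the markers were named outside this rule, after their values were seen. TOB1 was not analysed here, 1 listed gene and 1 marker are not reported here, and HJV was read as HFE2. Counting intervals are exact binomial intervals at 95%. The neighbours' median was that of the closest 50 genes averaging 10 RPM or more, for 19883 genes placed by symbol. Same-numbered libraries deviated together from the means of their lines (r = 0.209, 0.32 and 0.178; -0.294 to 0.0706 for other pairs), so the replicate number was also fitted as a block; the sources do not say what it marks. No 2 libraries were alike within sampling noise.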

Additional observations from a re-analysis of the deposited data

How the results depend on the processing

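The falls of SMAD6, ID1 and BAMBI kept their side of the threshold in every alternative run, and no result changed direction. With the replicate block over all genes, 3 members passed in place of 6. BMP2 (log2 difference -1.71) and BMP4 (-0.92) no longer passed there. BMP4 also missed with an offset of 5 RPM (-0.91) and with trend and robust settings (-0.92). ID3 passed with genes under 1 RPM removed, with and without the block, and at the study's thresholds (-1.31 in each), with median centring (-1.34), in edgeR (-2.03) and in DESeq2 (-2.05); the filtered fits tested fewer genes. With 1 library left out, 3 to 5 members passed, 3 of them without HuCCT1/CD90+ replicate 1 or 2. The difference then ranged from -1.91 to -1.54 for BMP2, from -1.03 to -0.70 for BMP4 and from -1.60 to -0.99 for ID3. Of the other pathway genes 12 to 20 passed under the alternatives, in place of 16. Leaving out 1 library lowered the number of genes of the whole table that passed from 3939 to between 2197 and 2932. On recovered reads edgeR called 5357 of the 12070 genes it tested and DESeq2 5328 of 14368. The median log2 difference of all genes at 1 RPM or more was -0.0086, and -0.012 and -0.035 after quantile normalization and median centring. The filter combined with the block was chosen after seeing the data. The offset moved the size of the difference of low genes. Going from 0.1 to 5 RPM, it went from -2.26 to -0.54 for ID3, from -2.59 to -1.46 for BAMBI, from -1.95 to -1.13 for BMP2, from 3.13 to 0.55 for BMPR1B, from -4.46 to -1.09 for SOSTDC1, from -3.71 to -0.98 for ATOH8 and from -2.97 to -0.55 for HEY1; apart from ID3, which missed at both, these genes passed at both offsets. At this depth genes under 3 reads a library, BMP7, SMAD9 and GREM1 among them, could not be compared.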
